A study of Mus musculus with 8 samples.

Results

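The 10 genes described here mark the mural cells of blood vessels, which are smooth muscle cells and pericytes. They are Acta2, Tagln, Myh11, Cnn1, Actg2, Mylk, Rgs5, Pdgfrb, Cspg4 and Notch3, taken by gene symbol from a table of 18251 genes, and all 10 were present. RNA was sequenced from 8 subcutaneous tumours grown under the armpit of C57 mice that were male and 7 weeks old. The tumours were made of MC38, a mouse colon cancer cell line, carrying TetOn-CXCL14, which places the chemokine CXCL14 under the control of doxycycline (DOX). The 4 control tumours came from 4 uninduced mice, and the 4 DOX tumours came from 4 mice given drinking water with 1 mg/mL DOX for 3 days. Both groups carried the construct and no tumour without it received DOX, so effects of DOX and of CXCL14 cannot be told apart. The labels give 300 mm3 both as the size at which DOX was begun and as the size at collection. Host vessels, fibroblasts and leukocytes are sequenced together with the cancer cells in such tissue, and fewer cells of a type cannot be told apart from less RNA per cell.

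Smooth muscle cells contract when myosin light chain kinase phosphorylates the light chains of smooth muscle myosin, which then pulls on smooth muscle actin filaments. Transcription of the genes for these contractile proteins is driven largely by serum response factor (SRF) and its coactivator myocardin, which act at CArG boxes. Pericytes wrap the capillary endothelium. They are recruited by platelet-derived growth factor B from endothelial cells acting on the receptor encoded by Pdgfrb, and Notch3 receives signals from endothelial Jagged ligands. In a tumour, Acta2 and Tagln are also transcribed in activated fibroblasts, and Cspg4 and Pdgfrb are found in several mesenchymal cell types and in some cancer cells, so several of these genes do not mark mural cells alone.

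The libraries held 18686049 to 19307540 counts. Cxcl14 was at 8.30 to 9.69 CPM (counts scaled to library size) in the controls and 15.8 to 30.2 CPM in DOX tumours. The main test was edgeR's quasi-likelihood test with Benjamini-Hochberg adjustment over 13436 genes, and a gene was called when its adjusted p was below 0.05. Of those genes 0.00744% were called, which is 1 gene, Adgrg1. A far larger share, 11.6%, reached an unadjusted p below 0.05. DESeq2 called 0.566% of the genes for which it gave an adjusted p. The median log2 fold change over all tested genes was -0.01. On the first principal component, with 39.6% of the variance, DOX tumour 1 lay at -10.5, within the control range of -27.3 to -9.35, and the other DOX tumours lay at 14.9 to 43.1. Epithelial genes of colon were near 0, with Epcam at no more than 0.366 CPM, Krt8 at 0.313 to 0.983 CPM and Krt20 at no more than 0.0534 CPM, whereas Cdh1, encoding E-cadherin, was at 4.77 to 19.8 CPM.

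Expression of the contractile genes was highest in DOX tumour 2 for all 6 of them and next highest in DOX tumour 4 for 5 of them, Actg2 being the exception, while DOX tumour 1 was within or below the range of the controls. None of the 10 genes was called, and in all 10 the range of the DOX tumours overlapped that of the control tumours. Across all tested genes 5.66% had groups that did not overlap. The 6 contractile genes summed to 12.5, 15.2, 11.6 and 22.1 CPM in control tumours 1 to 4 and to 11.5, 73.5, 20.1 and 48.4 CPM in DOX tumours 1 to 4. The 4 pericyte genes summed to 173 to 272 CPM in control tumours and 176 to 267 CPM in DOX tumours, which is nearly the same range. Cspg4 and Pdgfrb made up most of this sum, and Notch3 added no more than 4.31 CPM in any tumour. Of the 8 members that passed the filter on low counts, 7 had a log2 fold change above 0, against 46.8% of all tested genes, with a median of 0.29, which was 0.17 without DOX tumour 2 and 0.45 without DOX tumour 1. For Acta2 and Tagln it was above 1, as it was for 1.88% of all tested genes, and these 2 also had an unadjusted p below 0.05, as had 7.65% of all tested genes in the direction of higher expression in DOX tumours. The median was 1.18 for the 4 tested contractile genes and 0.08 for the 4 pericyte genes.

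**Figure D1:**
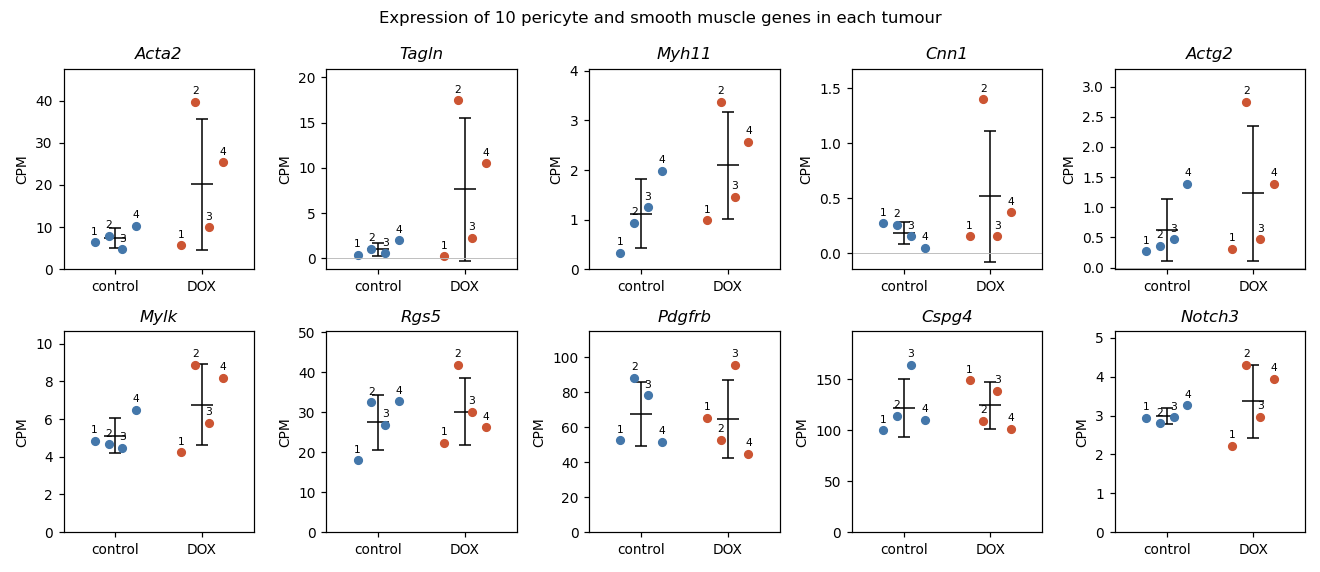
Expression in CPM (linear axes, 1 panel per gene) of the 10 genes in 4 control tumours (blue) and 4 DOX tumours (red). Each numbered point is 1 tumour, and the black bars give the mean and SD of 4 tumours. DOX tumours 2 and 4 stand above the rest for Acta2 (39.6 and 25.4 CPM) and Tagln (17.5 and 10.5 CPM), while Pdgfrb and Cspg4 show no such split.

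Acta2 encodes smooth muscle alpha-actin. Its expression was 6.39, 7.93, 4.72 and 10.2 CPM for controls 1 to 4 and 5.64, 39.6, 9.92 and 25.4 CPM for DOX tumours 1 to 4. DOX tumours 2 and 4 were above every control tumour, DOX tumour 3 was just below control tumour 4, and DOX tumour 1 was lower than 3 of the 4 controls. The means were 7.32 ± 2.35 CPM for controls and 20.1 ± 15.5 CPM for DOX tumours (SD, 4 tumours each), a fitted 2.75-fold difference. The log2 fold change was 1.46 ± 0.57 (SE), with an unadjusted p of 0.0312 and an adjusted p of 0.398 in edgeR, and DESeq2 gave an adjusted p of 0.279. The coefficient of variation was 32.0% among control tumours and 77.0% among DOX tumours.

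Tagln encodes transgelin (SM22-alpha), an actin-binding protein. Its level was 0.382, 1.04, 0.571 and 1.98 CPM for controls 1 to 4 and 0.207, 17.5, 2.25 and 10.5 CPM for DOX tumours 1 to 4. The lowest and the highest of the 8 tumours were thus both DOX tumours, and they differed 84.5-fold. The deposited count behind the lowest value was 4.18 and that behind the highest was 336.68. Control and DOX means were 0.993 ± 0.715 and 7.62 ± 7.95 CPM (SD, 4 tumours each). The log2 fold change of 2.93 ± 1.06 (SE) was the largest among the members, with an unadjusted p of 0.0232 and an adjusted p of 0.389 in edgeR. Its spread was large as well. Tagln had a biological coefficient of variation of 0.940 where the median gene had 0.116, and in a fit without the count filter 1.49% of 18206 genes had a larger one than Tagln.

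Myh11 encodes the smooth muscle myosin heavy chain, the most restricted of these markers. It was low throughout, at 0.328, 0.933, 1.25 and 1.98 CPM for controls 1 to 4 and 0.983, 3.37, 1.46 and 2.56 CPM for DOX tumours 1 to 4. Again DOX tumours 2 and 4 came first, followed by control tumour 4. The means were 1.12 ± 0.689 and 2.10 ± 1.08 CPM (SD, 4 tumours each), and the log2 fold change was 0.90 ± 0.52 (SE, adjusted p = 0.525 in edgeR).

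Cnn1 encodes calponin 1, which binds actin and slows the myosin ATPase. Its counts were 5, 5, 3 and 1 in control tumours 1 to 4 and 3, 27, 3 and 7 in DOX tumours 1 to 4. DOX tumour 2 alone held more than 7 counts. In CPM the means were 0.185 ± 0.102 and 0.522 ± 0.595 (SD, 4 tumours each). Cnn1 did not pass the count filter. In the fit without that filter its log2 fold change was 1.46 ± 0.78 (SE, adjusted p = 0.539 in edgeR), and it was 0.29 when DOX tumour 2 was left out.

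Actg2 encodes gamma-2 actin of enteric smooth muscle. Its counts were 5, 7, 9 and 26 in control tumours 1 to 4 and 6, 53, 9 and 26 in DOX tumours 1 to 4. Apart from DOX tumour 2, the counts of the DOX tumours lay within the range of the controls. Actg2 also failed the filter, and without it the log2 fold change was 0.97 ± 0.75 (SE, adjusted p = 0.686 in edgeR), or 0.20 without DOX tumour 2 and 1.72 without control tumour 4.

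Mylk encodes myosin light chain kinase, which starts contraction and whose shorter products also act in non-muscle cells. It was at 4.86, 4.67, 4.46 and 6.49 CPM for controls 1 to 4 and 4.24, 8.87, 5.80 and 8.17 CPM for DOX tumours 1 to 4. The order of the highest 4 tumours was that of Acta2, namely DOX tumour 2, DOX tumour 4, control tumour 4 and DOX tumour 3. The means of 5.12 ± 0.926 and 6.77 ± 2.14 CPM (SD, 4 tumours each) corresponded to 0.40 ± 0.24 on the log2 scale (SE, adjusted p = 0.533 in edgeR).

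Rgs5, a regulator of G protein signalling and one of the most widely used pericyte markers, was at 18.03, 32.5, 26.8 and 32.7 CPM for controls 1 to 4 and 22.4, 41.9, 30.1 and 26.2 CPM for DOX tumours 1 to 4. DOX tumour 2 was the highest, but DOX tumour 4 lay below 3 of the 4 controls. Mean levels were 27.5 ± 6.90 and 30.1 ± 8.42 CPM (SD, 4 tumours each), so that the log2 fold change came to 0.13 ± 0.24 (SE, adjusted p = 0.856 in edgeR).

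Pdgfrb, the receptor through which pericytes are recruited, was at 52.7, 88.3, 78.3 and 51.7 CPM for controls 1 to 4 and 65.6, 52.8, 95.7 and 44.9 CPM for DOX tumours 1 to 4. Its highest value was in DOX tumour 3 and its lowest in DOX tumour 4, so the tumour order differed from that of the contractile genes. Mean expression was 67.7 ± 18.4 CPM in controls and 64.7 ± 22.3 CPM under DOX (SD, 4 tumours each), and the log2 fold change was -0.06 ± 0.26 (SE, adjusted p = 0.941 in edgeR).

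Cspg4, encoding the proteoglycan NG2, was the most abundant member at 99.7, 114, 164 and 110 CPM for controls 1 to 4 and 149, 109, 139 and 101 CPM for DOX tumours 1 to 4. Control tumour 3 and DOX tumour 1 were the highest, and these are the 2 lowest tumours for Acta2. The log2 fold change was 0.03 ± 0.18 (SE, adjusted p = 0.962 in edgeR) between means of 122 ± 28.7 and 124 ± 22.9 CPM (SD, 4 tumours each).

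Notch3, the Notch receptor needed for the maturation of arterial smooth muscle, was at 2.95, 2.80, 2.96 and 3.27 CPM for controls 1 to 4 and 2.23, 4.31, 2.98 and 3.95 CPM for DOX tumours 1 to 4. The control tumours lay close together, with a coefficient of variation of 6.60%, and the DOX tumours fell on both sides of them, with 28.1%. The 2 highest were DOX tumours 2 and 4, as for the contractile genes. The means were 2.99 ± 0.198 and 3.37 ± 0.946 CPM (SD, 4 tumours each), and the log2 fold change was 0.17 ± 0.22 (SE, adjusted p = 0.794 in edgeR).

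For the pericyte genes the log2 fold change ± 2 SE ran from -0.34 to 0.60 for Rgs5, from -0.59 to 0.46 for Pdgfrb, from -0.33 to 0.39 for Cspg4 and from -0.27 to 0.61 for Notch3. The Acta2 estimate of 1.46 lies outside all 4 of these intervals, while the Mylk estimate of 0.40 lies inside those of Rgs5, Pdgfrb and Notch3. For Acta2 and Tagln themselves the corresponding intervals were 0.33 to 2.59 and 0.81 to 5.05, and the adjustment over 13436 genes left both uncalled. The interval of Acta2 overlaps all 4 pericyte intervals, so these values do not separate Acta2 from the pericyte genes.

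**Figure D2:**
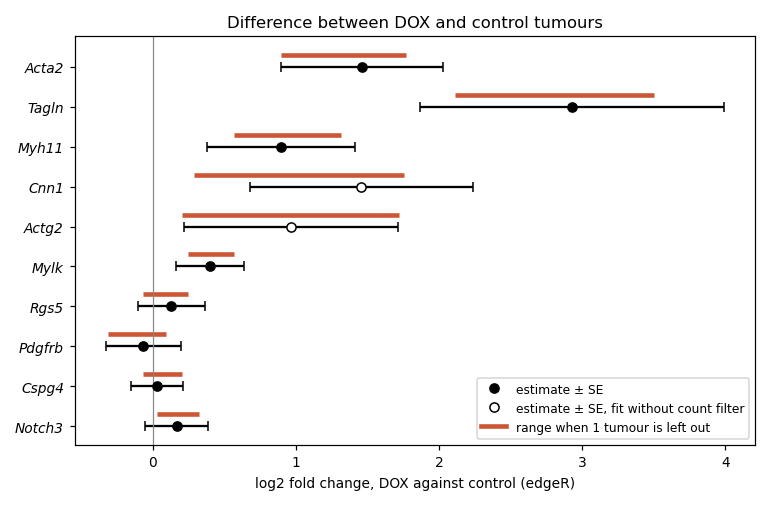
Log2 fold change of DOX against control tumours from edgeR (horizontal axis) for each of the 10 genes, as a point with its SE, with open points for the 2 genes taken from the fit without the count filter. Red bars span the estimates when each tumour is left out in turn; they stay above 0 for the 6 contractile genes and Notch3 and cross 0 for Rgs5, Pdgfrb and Cspg4.

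DOX tumour 2 had the highest value of the 8 tumours in 8 members, namely the 6 contractile genes, Rgs5 and Notch3. Among the 8 tested members DOX tumour 2 was the highest in 6, and over all tested genes it was the highest in 5.12%. The 2 highest tumours were DOX tumours 2 and 4 in Acta2, Tagln, Myh11, Cnn1, Mylk and Notch3. This pattern was shown by 5 of the 8 tested members and by 10% of all tested genes. Without DOX tumour 2 the log2 fold change was 0.90 for Acta2, 2.11 for Tagln, 0.57 for Myh11, 0.25 for Mylk and 0.03 for Notch3. Without DOX tumour 1, which was among the lowest in these genes, it was 1.77 for Acta2 (adjusted p = 0.131 in edgeR) and 3.33 for Tagln (adjusted p = 0.116), and no member was called. In Acta2, Myh11, Mylk and Notch3 the tumour after DOX tumours 2 and 4 was control tumour 4, and leaving it out moved the estimate of Myh11 from 0.90 to 1.31. The labels give no batch, so no value within batches was available.

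The contractile genes were described as a set by how they varied together over the 8 tumours. Over the 15 pairs of the 6 genes the Pearson correlation of log2 CPM ran from 0.38 (Myh11 and Cnn1) to 0.97 (Tagln and Mylk). Between Acta2 and Tagln the Pearson correlation of log2 CPM was 0.96 (Spearman 0.90, n = 8 tumours), and between Acta2 and Mylk it was 0.96 (Spearman 0.95). Cnn1 stood apart from this, with 0.75 against Acta2 and 0.65 against Tagln (Spearman 0.52 and 0.55). Among the pericyte genes Notch3 varied with the contractile genes, at 0.89 with Acta2 and 0.93 with both Tagln and Mylk (Spearman 0.83, 0.90 and 0.93). Acta2 against Pdgfrb and Cspg4 gave -0.51 and -0.57 (Spearman -0.43 and -0.60), while Pdgfrb and Cspg4 gave 0.66 with each other (Spearman 0.69). Without DOX tumours 2 and 4, the 2 farthest from the median of Acta2, the Pearson values were 0.86 for Tagln, 0.87 for Mylk, 0.43 for Myh11, -0.38 for Cnn1, 0.50 for Notch3, 0.05 for Pdgfrb and -0.50 for Cspg4 over the other 6 tumours, so the values for Cnn1 and Pdgfrb rested on those 2. Tagln against Cnn1 gave -0.45 without them. All come from the same 8 libraries and are given as a description. Among 12758 genes compared, those with the pattern most like Acta2 were Adamts2 (r = 0.952), which encodes a procollagen peptidase, Fcrl5 (0.949) and Pira1 (0.937), both receptors of leukocytes. The nearest to Tagln were Pira1 (0.962), Ndufb4 (0.957), a subunit of respiratory complex I, and Rrbp1 (0.944). For Myh11 they were Clec12a (0.965), Ms4a7 (0.960) and Itpripl1 (0.955), and for Mylk they were Sirpb1b (0.983), Rexo2 (0.973) and Fcrl5 (0.959). For the counts of Cnn1 and Actg2, which are close to 0, Cdyl2 (0.970) and Ckb (0.964) were nearest. Rgs5 was closest to the gene model LOC115485636 (0.957) and the metalloprotease gene Adam12 (0.957), Pdgfrb to Amacr (0.982), Cspg4 to Zbtb8a (0.927), and Notch3 to 2610001J05Rik (0.963) and Loxl2 (0.957), a lysyl oxidase of the extracellular matrix. All of these r values are the highest of many over 8 points.

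Levels of different genes were compared in FPKM, which is scaled to transcript length. Averaged over the 8 tumours, the order was Cspg4 (15.4 FPKM), Pdgfrb (12.6), Rgs5 (7.18), Acta2 (6.05), Tagln (2.79), Mylk (1.30), Actg2 (0.730), Notch3 (0.396), Myh11 (0.318) and Cnn1 (0.248). Each gene overlapped in range with the next in this order. Tumour by tumour, Acta2 was above Tagln in all 8, at 2.66 against 0.14 FPKM in DOX tumour 1 and 17.8 against 11.5 FPKM in DOX tumour 2. No other pair of neighbours kept its order in all 8 tumours. Within groups the order shifted: Mylk (1.11) was above Tagln (0.648) in the control means, and Acta2 (8.82) was above Rgs5 (7.50) in the DOX means. Cspg4 was above Rgs5 in every tumour, at 12.1 to 20.8 against 4.41 to 10.4 FPKM. Acta2 was at 3.27 ± 0.816 FPKM for controls and 8.82 ± 6.78 FPKM for DOX tumours (SD, 4 tumours each). The 4 genes at the bottom of this order stayed below 2.2 FPKM in every tumour, Actg2 in DOX tumour 2 being the highest of them.

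Several relatives of the contractile genes that are used in most cells were far more abundant. Over the 8 tumours Actb and Actg1, the cytoplasmic actins, averaged 1806 and 1233 FPKM against 6.05 for Acta2. The non-muscle myosin heavy chain gene Myh9 averaged 169 FPKM against 0.318 for Myh11, Tagln2 averaged 346 FPKM against 2.79 for Tagln, and Cnn3 and Cnn2 averaged 142 and 83.2 FPKM against 0.248 for Cnn1. The tumours therefore carried these non-muscle relatives at high levels and the smooth muscle members at low ones. Myh10, another non-muscle myosin gene, was lower at 1.09 to 2.11 FPKM, though above the mean of Myh11. In edgeR the log2 fold changes were -0.06 ± 0.11 for Actg1, 0.19 ± 0.11 for Actb and -0.11 ± 0.07 for Myh9 (SE), none of them called. Among the receptors, Notch2 (11.1 FPKM), Notch1 (3.91) and Notch4 (1.18) were above Notch3 (0.396), and Pdgfra (25.0) was above Pdgfrb (12.6). Of the 23 paralogs of members 17 were tested, with a median log2 fold change of 0.03 and 0 called. The 3 with the smallest p were Rgs16, another regulator of G protein signalling, at 1.28 ± 0.35, the non-muscle myosin gene Myh10 at 0.46 ± 0.14 and Notch1 at 0.31 ± 0.12 (SE). Rgs16 had an adjusted p of 0.387 in edgeR and was called by DESeq2.

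The counts deposited for Acta2 and Tagln were whole numbers in 0 of 8 libraries and those for Myh11 in 1 of 8, so these genes hold reads that the authors' tool divided with other genes. Rgs5 had a whole count in 7 of 8 libraries, the exception being 432.74 in DOX tumour 1, and the other 6 members had whole counts in all 8. Stretches of 50 bases were compared between the transcripts of each member and all other transcripts of the GENCODE M21 annotation. Acta2 shared 7 of its 2146 stretches (0.326%) with Actg1 and 5 other gene models, and Myh11 shared 26 of 7644 (0.340%) with Myh9 and Myh10. Actg1 was at 2036 to 2762 CPM and Myh9 at 1180 to 1386 CPM in the 8 tumours, far above Acta2 and Myh11. The part of divided reads in the values of Acta2 and Myh11 was not tested. The longest coding runs shared by each pair are printed from the GRCm38 transcripts, with the identical bases in capitals and 12 bases on each side in lower case. The 56 identical bases are coding bases 910 to 965 of Acta2 (chromosome 19) and 904 to 959 of Actg1 (chromosome 11), and the 65 identical bases are coding bases 1426 to 1490 of Myh11 (chromosome 16) and 1384 to 1448 of Myh9 (chromosome 15).
Acta2: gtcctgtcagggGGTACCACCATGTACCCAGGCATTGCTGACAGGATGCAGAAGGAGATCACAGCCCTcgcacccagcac
Actg1: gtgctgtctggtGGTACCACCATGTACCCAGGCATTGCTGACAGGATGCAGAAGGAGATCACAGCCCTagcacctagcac
Myh11: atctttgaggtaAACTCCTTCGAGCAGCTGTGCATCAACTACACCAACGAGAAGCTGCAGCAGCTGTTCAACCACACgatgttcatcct
Myh9: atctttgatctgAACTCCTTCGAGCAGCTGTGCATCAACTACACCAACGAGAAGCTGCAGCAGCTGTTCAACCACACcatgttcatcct

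Tagln differed in that 1157 of its 1983 stretches (58.3%) were shared with genes on the opposite strand of the same place. These are the antisense gene Gm48529, which covers 1241 of its exonic bases, and Pcsk7, which covers 108. Gm48529 has no row in the count table, and 59 of the stretches (2.98%) were shared with Pcsk7, which has one. Pcsk7 was at 31.0 to 35.9 CPM in the 8 tumours and had a log2 fold change of 0.06 ± 0.06 (SE). Its deposited counts, like those of Tagln, were whole numbers in 0 of 8 libraries. Whether reads were divided between Tagln and Pcsk7 was not tested. No source used here says whether the counting was strand-aware, so antisense reads of these partners may stand in the Tagln counts, and Tagln and Pcsk7 may hold each other's reads. Mylk and Notch3 shared 4.56% and 4.93% of their stretches with other genes, including antisense genes, and Cnn1, Actg2, Rgs5, Pdgfrb and Cspg4 shared 0.

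In NCBI's annotation of GRCm38.p6 the contractile genes lie on chromosome 19 for Acta2 (34240336 to 34255585), 9 for Tagln (45929628 to 45936058) and Cnn1 (22099221 to 22109221), 16 for Myh11 (14194527 to 14292188) and Mylk (34745199 to 35002436), and 6 for Actg2 (83512909 to 83536251). The pericyte genes lie on chromosome 1 for Rgs5 (169655501 to 169695813), 18 for Pdgfrb (61045127 to 61085067), 9 for Cspg4 (56865104 to 56899870) and 17 for Notch3 (32120820 to 32166896). Promoter windows from 250 bases before to 50 after a RefSeq start were on hand for 6 members, Acta2, Cnn1, Mylk, Rgs5, Cspg4 and Notch3, with 1 window each. The window of Mylk (34784700 to 34784999) lies at a start inside the gene, and other starts were not searched. The start used for Acta2 also lies inside its annotated span, which ends at 34255585. Most of the 250 bases before that start, and both sites described below, are thus within the annotated gene. Distances of these sites are counted from the start used. The strict form of the CArG box, which is CC, then 6 bases that are each A or T, then GG, was searched on either strand. It was found in 1.63% of 32851 such windows and in 0 of the 6. A looser form with exactly 1 C or G among the 6 central bases, searched after the strict form gave no match, was present in 8.50% of windows, and at least 2 sites were present in 0.679%. Acta2 had 2 such sites and the other 5 members had 0. A match to the strict form is not needed for SRF to bind, and binding at these sites was not tested. GTGGGAA, a sequence bound by the Notch effector RBPJ, was present in 6.38% of windows and in 0 of the 6. The 250 bases before the Acta2 start (GRCm38.p6, chr19:34255374-34255623, minus strand) are shown because Acta2 varied most among the well-counted members whose promoter was on hand, with the CArG-like sites in capitals, 84 to 75 and 34 to 25 bases before the start.
Acta2 promoter: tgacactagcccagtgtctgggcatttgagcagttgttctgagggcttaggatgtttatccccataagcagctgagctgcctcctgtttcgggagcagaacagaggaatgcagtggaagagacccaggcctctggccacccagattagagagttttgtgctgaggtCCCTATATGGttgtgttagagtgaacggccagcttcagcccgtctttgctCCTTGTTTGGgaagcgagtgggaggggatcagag

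Further genes of contractile smooth muscle showed no common shift. Of 24 listed genes 18 were tested, 7 with a log2 fold change above 0 and 11 below, with a median of -0.07 and 0 called. The 3 with the smallest p were Ppp1r12b, a myosin phosphatase subunit, at -0.20 ± 0.07, the intermediate filament gene Synm at 0.67 ± 0.32 and the tropomyosin gene Tpm2 at -0.13 ± 0.07 (SE, adjusted p of 0.387, 0.458 and 0.475 in edgeR). Ppp1r12b was lower in all 4 DOX tumours (147 to 181 CPM) than in the 4 control tumours (187 to 195 CPM). With Cald1 this makes 2 of the 18 tested genes whose groups did not overlap, against 5.66% of all tested genes. The list holds both broadly used cytoskeletal genes and smooth muscle genes. Tpm1, Cald1, Flna, Vcl and Actn1 were abundant, with Cald1 at 818.3 to 914.4 CPM in control and 632.3 to 818.0 CPM in DOX tumours. Myl9, the regulatory light chain of smooth muscle myosin, was at 1.58, 1.09, 0.571 and 1.66 CPM for controls 1 to 4 and 0.621, 4.67, 0.836 and 2.94 CPM for DOX tumours 1 to 4, again highest in DOX tumours 2 and 4. Its log2 fold change was 0.89 ± 0.64 (SE, adjusted p = 0.618 in edgeR). Lmod1, which nucleates smooth muscle actin filaments, failed the filter and was likewise highest in those 2 tumours, at 1.09 and 1.07 CPM against at most 0.590 CPM in any other. Pln, encoding phospholamban, was at no more than 0.160 CPM. Over the list as a whole, the 2 highest tumours were DOX tumours 2 and 4 in 2 of the 18 tested genes, close to the 10% over all tested genes. DOX tumour 2 was the highest in 5 of the 18, against 5.12% of all tested genes. Cald1, Myl9 and Lmod1, like the cytoskeletal genes and Pln, were singled out after their values were seen.

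Except for Fhl1, the tested regulators of these genes showed small differences. Of 10 SRF and myocardin regulators on hand, 9 were tested, 1 above 0 and 8 below, with a median log2 fold change of -0.12 and 0 called. Srf was at -0.01 ± 0.10 (SE) between means of 83.5 and 83.0 CPM. Myocd, encoding myocardin, was at no more than 0.104 CPM in any tumour, which is too low for a comparison. The 3 genes with the smallest p were Tead1 at -0.20 ± 0.08, the LIM protein gene Fhl1 at 1.55 ± 0.61 and Klf4, a repressor of the contractile program, at -0.18 ± 0.11 (SE, adjusted p of 0.398, 0.402 and 0.570 in edgeR). Fhl1 was at 0.765 to 2.80 CPM in control tumours and at 1.29, 9.29, 4.91 and 6.30 CPM in DOX tumours 1 to 4. For 15 genes of the control of vessel tone 12 were tested, with a median of -0.04 and 0 called, led by the adrenergic receptor genes Adra1b at -0.56 ± 0.28 and Adra2a at 0.76 ± 0.44 and the phosphatase subunit gene Ppp1r12a at -0.13 ± 0.07 (SE).

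Further pericyte genes had no common direction either. Of 20 listed 17 were tested, 6 above 0 and 11 below, with a median log2 fold change of -0.03 and 0 called. P2ry14, a receptor for UDP-sugars, was at 8.03 to 12.2 CPM in control tumours and 12.9 to 26.3 CPM in DOX tumours, with no overlap, and its log2 fold change was 0.79 ± 0.23 (SE, adjusted p = 0.387 in edgeR). Anpep, encoding aminopeptidase N, gave 0.90 ± 0.31 and the transcription factor gene Tbx18 gave -0.16 ± 0.07 (SE, adjusted p of 0.387 and 0.446 in edgeR). Tbx18 also had no overlap, at 22.1 to 25.5 CPM in controls and 19.9 to 22.0 CPM under DOX, which makes 2 such genes of the 17 against 5.66% of all tested genes. Both P2ry14 and Anpep are also transcribed in leukocytes and were highest in DOX tumour 4. Kcnj8 and Abcc9, the 2 subunits of the pericyte potassium channel, were at 0.858 to 2.54 and 2.62 to 7.16 CPM over the 8 tumours, with log2 fold changes of -0.62 ± 0.31 and -0.37 ± 0.26 (SE, adjusted p of 0.463 and 0.594 in edgeR). These 2 and Higd1b, which stayed at no more than 0.710 CPM, are named as narrow pericyte markers and were picked after their values were seen.

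Ligands of the receptors among the members were not called. For the 6 genes of the PDGF family, Pdgfrb included, the median log2 fold change was -0.01 with 0 called. Pdgfb, the endothelial ligand of the Pdgfrb product, was at 16.0 to 21.7 CPM in control tumours and 19.3 to 35.7 CPM in DOX tumours, a log2 difference of 0.44 ± 0.19 (SE, adjusted p = 0.423 in edgeR). Pdgfra gave -0.36 ± 0.19 and Pdgfd gave 0.48 ± 0.34 (SE). Of 14 Notch genes, Notch3 included, 13 were tested with a median of -0.02 and 0 called. Notch1 had a log2 fold change of 0.31 ± 0.12, the target gene Hey1 had 0.69 ± 0.30 and Rbpj, the DNA-binding effector, had -0.27 ± 0.17 (SE, adjusted p of 0.389, 0.423 and 0.553 in edgeR). Notch1 was at 25.7 to 38.5 CPM in control tumours and 38.8 to 45.6 CPM in DOX tumours. Jag1, a ligand of the Notch3 product chosen here for that role, was at -0.02 ± 0.10 (SE). The 5 angiopoietin genes had a median of 0.09 and 0 called, with Angptl4 at 0.36 ± 0.18, Angpt1, the pericyte ligand of TIE2, at -0.14 ± 0.19 and Tie1 at 0.14 ± 0.22 (SE).

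Markers of skeletal muscle, which lies beside a subcutaneous tumour, were high in the same 2 DOX tumours. Of 16 markers 14 were tested and all 14 had a log2 fold change above 0, with a median of 1.74, 6 with an unadjusted p below 0.05 against 7.65% of all genes in that direction, and 0 called. The sum of the 16 was 7.16, 80.0, 59.7 and 10.5 CPM for controls 1 to 4 and 33.7, 240.5, 132.8 and 222 CPM for DOX tumours 1 to 4. In 10 of the 14, the 2 highest were DOX tumours 2 and 4. The 3 highest tumours by this sum, DOX tumours 2, 4 and 3, were in the same order for Tagln, whereas control tumour 4, second lowest by this sum, came next after DOX tumours 2 and 4 for Acta2, Myh11 and Mylk. Myh4, a fast myosin, was at 0 in control tumours 1 and 4 and at 35.3 and 43.9 CPM in DOX tumours 2 and 4. These are the 2 lowest and the 2 highest tumours by the sum of the markers, in which control tumours 2 and 3 stood above DOX tumour 1. The genes with the smallest p were Ckm, encoding muscle creatine kinase, at 4.19 ± 1.20, Myoz1 at 2.15 ± 0.68 and Myh4 at 4.12 ± 1.31 (SE, adjusted p = 0.387 for each in edgeR). Des, Casq2 and Fhl1, which stand in the smooth muscle lists, are also transcribed in striated muscle. Acta1, the skeletal actin gene, shares a family with Acta2 and was at 0.0546, 22.0, 12.8 and 0.375 CPM for controls 1 to 4 and at 5.80, 51.6, 29.2 and 43.5 CPM for DOX tumours 1 to 4. It had a whole count in 0 of 8 libraries. Acta1 was not among the genes that shared stretches of 50 bases with Acta2, and division of reads between them was not tested. The part of muscle tissue in the Acta2 and Tagln values was not tested.

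**Figure D3:**
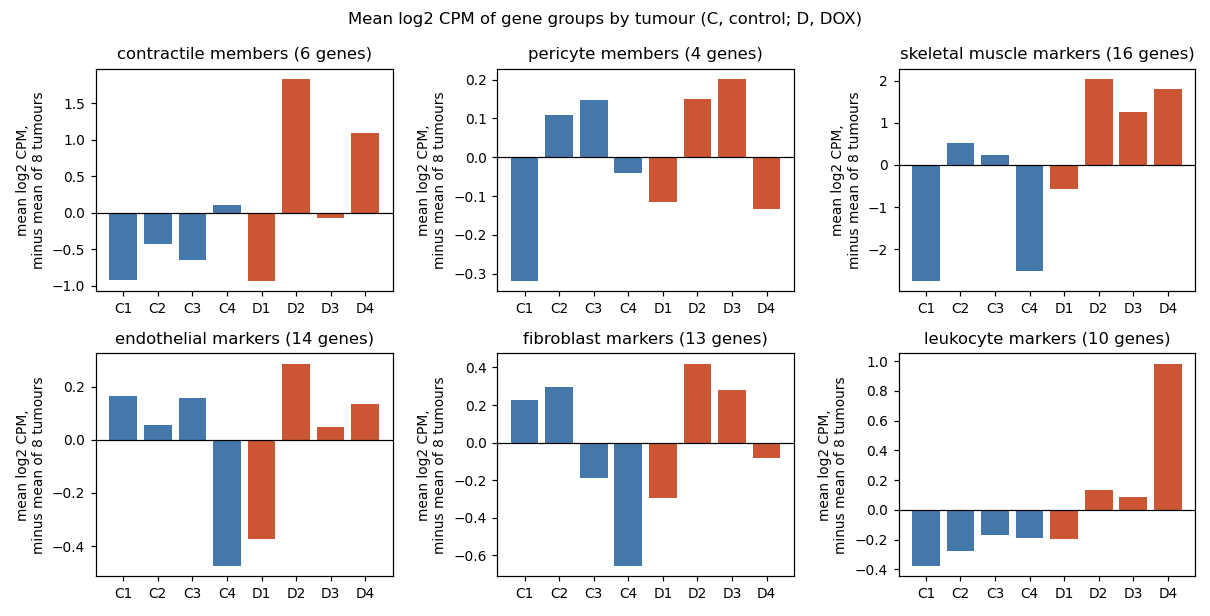
Mean log2 CPM of 6 gene groups in each tumour, minus the mean of the 8 tumours (vertical axis, scale differing between panels), for control tumours 1 to 4 (C1 to C4, blue) and DOX tumours 1 to 4 (D1 to D4, red). DOX tumours 2 and 4 are the highest for the 6 contractile members and for the skeletal muscle markers, and DOX tumour 4 is the highest for leukocyte markers, while the 4 pericyte members vary over a narrow range.

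Markers of endothelial cells, which line the vessels, summed to 140 to 214 CPM in control tumours and 148 to 245 CPM in DOX tumours. All 14 were tested, with a median log2 fold change of 0.05 and 0 called. Eng, encoding endoglin, gave 0.51 ± 0.17, Plvap gave 0.46 ± 0.24 and the tight junction gene Cldn5 gave -0.74 ± 0.49 (SE, adjusted p of 0.387, 0.493 and 0.585 in edgeR). The summed endothelial level was highest in DOX tumours 4 and 2 and lowest in control tumour 4 and DOX tumour 1. Fibroblast markers summed to 4294 to 8017 CPM in control tumours and 4234 to 6684 CPM in DOX tumours. The median over 13 tested was -0.07 on the log2 scale, with 0 called by edgeR and 1, Thy1, by DESeq2. Of these Thy1 was at 1.00 ± 0.27, Mfap5, a microfibril gene, at 1.56 ± 0.55 and Pdgfra at -0.36 ± 0.19 (SE). By the sum DOX tumour 4 was the lowest, while by the mean log2 CPM of the 13 markers DOX tumour 2 was the highest at 5.99, control tumour 4 the lowest at 4.91 and DOX tumour 4 was at 5.49. Their part in the contractile values was not tested.

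Leukocyte markers summed to 1082 to 1266 CPM in control tumours and 1361 to 2378 CPM in DOX tumours, without overlap. Of 10 markers 7 were tested, all 7 above 0 and all 7 highest in DOX tumour 4, as were 24.2% of all tested genes, with a median log2 fold change of 0.58. By edgeR 0 were called and by DESeq2 1, C1qa. C1qa gave 0.65 ± 0.16, Csf1r 0.47 ± 0.12 and Cd3e 1.51 ± 0.46 (SE, adjusted p = 0.387 for each in edgeR). For 5 of the 7 the 2 highest tumours were DOX tumours 4 and 2, as for most contractile members and against 10% of all tested genes, though it was DOX tumour 2 that was highest for the contractile members. The part of leukocytes in the contractile values was not tested. Markers of keratinocytes and myoepithelial cells summed to 10.8 to 24.1 CPM in control and 10.6 to 14.8 CPM in DOX tumours, with 3 of 8 tested and a median of -0.41. Adipocyte markers summed to 2.89 to 8.58 and 2.38 to 5.50 CPM, with 1 of 6 tested at -0.53, and Schwann cell and glial markers summed to 156 to 218 and 142 to 219 CPM, with 4 of 9 tested and a median of -0.03. In none of these 3 lists was a gene called by edgeR or DESeq2, and none had its highest sum in DOX tumour 2.

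At an unadjusted p below 0.05 in edgeR, which 11.6% of all tested genes reached, stood 1 of 18 further smooth muscle genes, 2 of 17 further pericyte genes, 2 of 9 SRF and myocardin regulators, 1 of 6 PDGF genes, 2 of 13 Notch genes and 5 of 17 paralogs. The count was 0 of 5 for the angiopoietin genes and 0 of 12 for vessel tone. Among the marker lists it was 1 of 14 for endothelial cells, 2 of 13 for fibroblasts and 6 of 7 for leukocytes. Of all the genes listed, DESeq2 called Rgs16, Thy1 and C1qa.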

How the data were processed

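Bulk mRNA was sequenced from 4 control and 4 DOX tumours, each from its own mouse, from 0.1 g of tissue per the labels' protocols. Groups come from the treatment label and replicate numbers from the titles. HISAT, Bowtie2 and the build GRCm38.p6 appear in the submitters' processing notes with no version or role. The counting tool and the use of strand are not stated in the sources used. The deposited read count table holds expected counts made by the authors, in which reads shared by similar genes were divided among them, since 64.9% of its values are whole within 0.005. FPKM values were deposited by the authors, per the file headers, and served for levels between genes and as an alternative. A deposited TPM table was left out because its columns, 8 in number, match no sample label.

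Expected counts were rounded to whole numbers. In edgeR 4.0.16 (R 4.3.3), filterByExpr kept 13436 genes, TMM scaled the libraries, and p-values of the quasi-likelihood test (robust dispersion) were adjusted by Benjamini-Hochberg, with calls at 0.05. An SE was obtained from the log2 fold change and the square root of F. Values in CPM are TMM-scaled, and log2 CPM used a prior count of 2. The common biological coefficient of variation was 14.7%. Every gene has the precision of 4 tumours a group. Alternatives were DESeq2 1.42.0, other scalings, no filter, no robust dispersion, a replicate block, leaving out each tumour, and limma 3.58.1 on log2(FPKM + 1) or log2(FPKM + 0.1), filtered at a mean of 0.5 FPKM. The fits were tested on simulated data.

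The 10 members and all gene lists were chosen with earlier results of these data known. The rule for named genes takes all 10 members, the 3 tested genes of each list with the smallest p, paralogs for their levels, and the genes with the highest Pearson correlation to each member (mean log2 CPM above 0). Where another gene is named, the text says so.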

Additional observations from a re-analysis of the deposited data

How the results depend on the processing

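No alternative called a member, and the log2 fold changes of the 6 contractile genes and Notch3 were above 0 in every alternative that could be fitted, from 0.90 to 1.77 for Acta2, 1.34 to 3.50 for Tagln, 0.22 to 1.31 for Myh11 and 0.22 to 0.57 for Mylk. Of the pericyte genes 3 changed sign when 1 tumour was left out: Rgs5 ran from -0.07 to 0.25 (-0.0692 without DOX tumour 2), Pdgfrb from -0.32 to 0.0913 (without control tumour 2) and Cspg4 from -0.0698 (without DOX tumour 1) to 0.21, all near 0. The median of the tested contractile members was 1.18, ran from 0.73 to 1.49 when 1 tumour was left out, and was 0.58 in limma on log2(FPKM + 1) without a filter, where the pseudocount compresses low genes and Myh11 is included. DESeq2 called 59 genes higher and 20 lower against 1 and 0 in edgeR, and the edgeR count of higher genes ran from 1 to 2 when 1 tumour was left out, with 2 without DOX tumour 4; the cause was not tested. The labels give no link between same-numbered control and DOX tumours beyond the number. Their deviations from the group means correlated at 0.00132, 0.0391, 0.0860 and -0.0243, which cannot show whether they shared a batch. With the replicate number as a block, 1 gene was higher and 0 lower, the contractile median was 1.06, and Acta2 and Tagln gave 1.18 and 2.48. The block lowered the SE of every tested member except Notch3, for Tagln from 1.06 to 0.65 and for Myh11 from 0.52 to 0.35. Cnn1 rests on 1 to 27 counts per library, and the size of difference that could be detected was not tested.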
